A study of Homo sapiens with 6 samples.

Results

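ERα binding was examined around 34 genes that drive or carry out DNA replication: the E2F transcription factors and the licensing, firing, cyclin, nucleotide and repair genes that E2F controls or that mark proliferation. A member region is a stretch of genome in which at least 1 of 6 deposited peak lists had its summit (the position of highest signal) inside the GRCh38 span of a member gene or within 10 kb of it. By this rule 163 of 175206 merged regions belonged to the 34 genes, 32 of them promoter-near, with the summit within 1 kb of the annotated start, and 131 distal. The rule uses gene positions and no measured level.

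The binding was measured by chromatin immunoprecipitation and sequencing (ChIP-seq) with the anti-ERα antibody D8H8 in MDA-MB-453, a human breast cancer cell line with little or no ERα of its own. Doxycycline switched on a transgene for wild-type (WT) ERα, for the Y537S receptor, whose substitution in the ligand-binding domain makes it active without hormone, or for the K303R receptor, substituted in the hinge region. All 6 libraries came from cells given 2 µg/mL doxycycline for 2 days in medium with 10% fetal bovine serum, and for each receptor 1 library was without added estradiol (E2) and 1 with 1 nM E2. The labels do not say whether a line was a clone or a pool or whether the serum was free of hormone, so the libraries without E2 are not shown to be hormone-free. Each group has 1 library: no difference below has a replicate check, every interval is a 95% interval that covers counting error only, and a call compares 2 libraries, not 2 conditions. The lists measure binding and not expression, so the identity of the cells was not checked against marker genes.

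E2F factors bind the promoters of genes needed for S phase. In resting cells pocket proteins such as RB1 hold them back. Cyclin E with CDK2 helps to release them, and the released activators E2F1, E2F2 and E2F3 raise the genes that license origins, fire them and supply nucleotides. Estrogen makes ERα-positive breast cancer cells enter S phase, and E2F1 and several replication genes are known to respond to it. ERα itself binds mostly at distal enhancers, at the estrogen response element, a pair of GGTCA arms facing each other across 3 bases.

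The upstream bases of 6 members are shown. PCNA, CDC25A and MCM2 are the members in which a region found in all 6 lists covered all 250 bases upstream of the start, so the printed bases lie beneath it. The activators E2F1, E2F2 and E2F3 each had a promoter-near region in all 6 lists, but beside the printed bases and not over them: of the 250 bases upstream it covered 0, at most 3 and 116, the last all farther from the start than the stretch printed. Each line gives the 120 bases that end just before the start, from RefSeq (GRCh38.p14), 5′ to 3′ on the strand of the gene. Capitals mark a match to an E2F motif, spelled TTTCGCGC, TTTGGCGC, TTTCCCGC or TTTGCCGC on either strand.
PCNA (chr20:5126623-5126742, minus strand): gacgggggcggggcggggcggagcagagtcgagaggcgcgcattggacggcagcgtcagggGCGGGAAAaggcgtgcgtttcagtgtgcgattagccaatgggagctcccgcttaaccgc
CDC25A (chr3:48188418-48188537, minus strand): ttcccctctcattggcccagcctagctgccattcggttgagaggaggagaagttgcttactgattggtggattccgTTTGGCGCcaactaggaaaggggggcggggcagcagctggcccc
MCM2 (chr3:127598291-127598410, plus strand): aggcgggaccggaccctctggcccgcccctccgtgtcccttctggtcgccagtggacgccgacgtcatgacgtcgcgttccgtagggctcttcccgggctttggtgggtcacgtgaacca
E2F1 (chr20:33686386-33686505, minus strand): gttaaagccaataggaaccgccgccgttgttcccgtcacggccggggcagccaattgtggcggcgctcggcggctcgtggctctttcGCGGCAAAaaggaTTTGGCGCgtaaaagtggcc
E2F2 (chr1:23531234-23531353, minus strand): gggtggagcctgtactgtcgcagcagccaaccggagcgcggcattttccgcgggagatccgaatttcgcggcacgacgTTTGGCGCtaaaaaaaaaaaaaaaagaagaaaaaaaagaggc
E2F3 (chr6:20401759-20401878, plus strand): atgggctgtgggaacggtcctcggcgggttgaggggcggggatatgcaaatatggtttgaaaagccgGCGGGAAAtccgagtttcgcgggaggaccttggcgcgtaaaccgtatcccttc

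The printed stretches of PCNA, CDC25A, E2F1, E2F2 and E2F3 held an E2F match. That of MCM2 held none, since its matches lie just after the start, and the same stretches of BRCA1 and CCNE1, also with a promoter-near region in all 6 lists, held none. In none of the 28 member promoters with an entry was there a full estrogen response element. The window searched was 250 bases before to 50 after the start. TTTCGCGC or TTTGGCGC was in 9 of 28 (32.1%) member promoters and in 1.67% of 15812 promoters of protein-coding genes. With TTTCCCGC and TTTGCCGC, spellings added after the first search, 13 of 28 (46.4%) and 4.45% held a match. The full estrogen response element was in 0.0379% of all promoters. A single arm, GGTCA, was in 9 members (32.1%) against 35.8% of all promoters. CCAAT, the box bound by NF-Y, was in 19 members (67.9%) against 36.3%, and GGGCGG, bound by SP1, was in 22 (78.6%) against 58.5%. GGGCGG and the E2F spellings can overlap. The cell cycle homology region, spelled TTTGAA or TTCGAA, was in 6 members (21.4% against 13.5%), and the FOXA spellings TGTTTAC or TATTTAC were in CDK1 alone (3.57% against 4.55%). The AP-1 spelling TGACTCA was in none (3.67% of all promoters). A match is a run of letters and not a measured site, and the sequence beneath the distal summits was not analysed here.

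Promoter-near summits were a minority at these genes in every library. WT had 21 promoter-near summits of 117 without E2 (17.9%, exact binomial interval 11.5% to 26.1%) and 20 of 107 with E2 (18.7%, 11.8% to 27.4%). Y537S had 22 of 121 (18.2%, 11.8% to 26.2%) and 23 of 118 (19.5%, 12.8% to 27.8%). K303R had 24 of 119 (20.2%, 13.4% to 28.5%) and 22 of 107 (20.6%, 13.4% to 29.5%). The 6 intervals overlap, but overlap is not a test, and the lists share many regions, so the 6 shares are not independent. A difference in this share between receptors or with E2 was not tested. Over all protein-coding genes a summit near the start of any such gene counted. The share was lower there, from 11.7% in WT with E2 to 14.1% in K303R without E2. With E2 it lay just below the interval of the members in WT (11.7%) and Y537S (12.6%), and below it in K303R (12.5%). Without E2 it lay inside the interval in WT (12.5%), Y537S (12.8%) and K303R (14.1%). The intervals treat summits as independent, although several come from the same gene, so this is no test of a difference. For 6 members without a listed start (MCM4, MCM5, CCNE2, CDK2, E2F5 and E2F8) either end of the gene span counted, which can only add promoter-near summits.

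**Figure D1:**
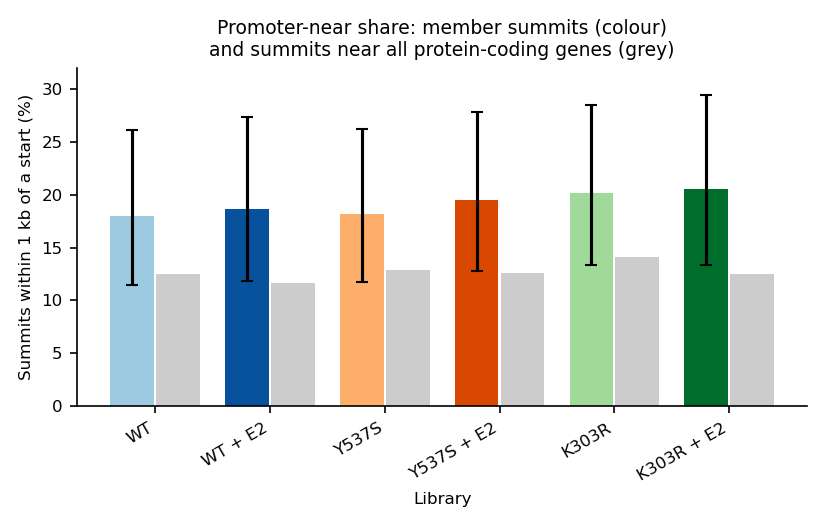
Share of summits within 1 kb of a start, in percent, in each of the 6 libraries; coloured bars are summits at the 34 genes with their exact 95% binomial interval, and grey bars are summits near all protein-coding genes. The coloured bars lie between 17.9% and 20.6% and their intervals overlap each other.

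Promoter-near binding was also the weaker kind, measured in summit fragments, the number of sequenced fragments that cover the summit. These counts are not scaled for read depth, so a ranking of libraries by fragments is a raw one. The median promoter-near summit held 17, 15.5, 16.5, 16, 16 and 18 fragments in WT, WT with E2, Y537S, Y537S with E2, K303R and K303R with E2. The median distal summit held 30, 35, 31, 40, 26 and 41 in the same order, the order used for every set of 6 values below. Every distal median was above every promoter-near median. Among regions found in all 6 lists, the median of the mean over libraries was 39.2 for 12 promoter-near and 57.4 for 58 distal member regions. Over all protein-coding genes, where a start of any such gene counted, it was 30.8 and 53.3.

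**Figure D2:**
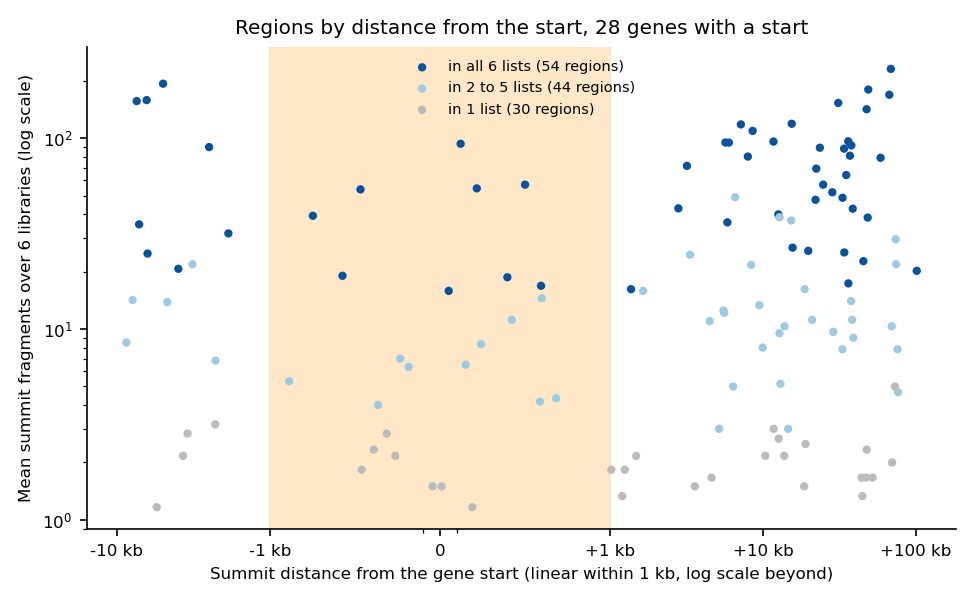
Mean summit fragments over the 6 libraries (log scale) against the distance of the summit from the gene start, for the regions of the 28 genes with a listed start; dark blue, light blue and grey points are regions in all 6, in 2 to 5 and in 1 list, and the shaded band is within 1 kb. The highest point in the band is PCNA at a mean of 93.3, and the regions above 100 all lie outside it.

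Nearly all of the genes had a summit, as most protein-coding genes did, and about as many as not had one near the promoter. Between 31 and 33 of the 34 genes had a summit in each library (91.2% to 97.1%), and 28 had one in all 6. Of 19974 protein-coding genes 82.2% to 84.7% had one by library, and the share with one in all 6 was not computed. MCM3, MCM6, CDK1, E2F6, TYMS and TOP2A lacked one in at least 1 list. A promoter-near summit was listed for 17, 16, 20, 19, 19 and 18 genes, which is 47.1% to 58.8% of members, while 40.1% to 44.9% of 19974 protein-coding genes had one. It was listed in all 6 libraries at 11 genes (MCM2, PCNA, CCNE1, CDK2, CDC25A, E2F1, E2F2, E2F3, E2F5, E2F8 and BRCA1), in 1 to 5 libraries at 14, and in none at 9 (CDC6, CDT1, MCM3, MCM5, CDC45, CCNE2, CCNB1, E2F4 and RRM2). The strongest region was distal at 24 genes and promoter-near at 10. Of the 163 regions, 70 were in all 6 lists (42.9%, against 40.6% over all protein-coding genes) and 34 in 1 list only (20.9%, against 21.0%). The summits of 87 regions lay inside the span, and for 76 regions the nearest annotated start was that of another gene. RRM2 with 18 regions and MCM5 with 15 held 33 of the 163, and both have long RefSeq spans (88.4 and 54.9 kb).

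**Figure D3:**
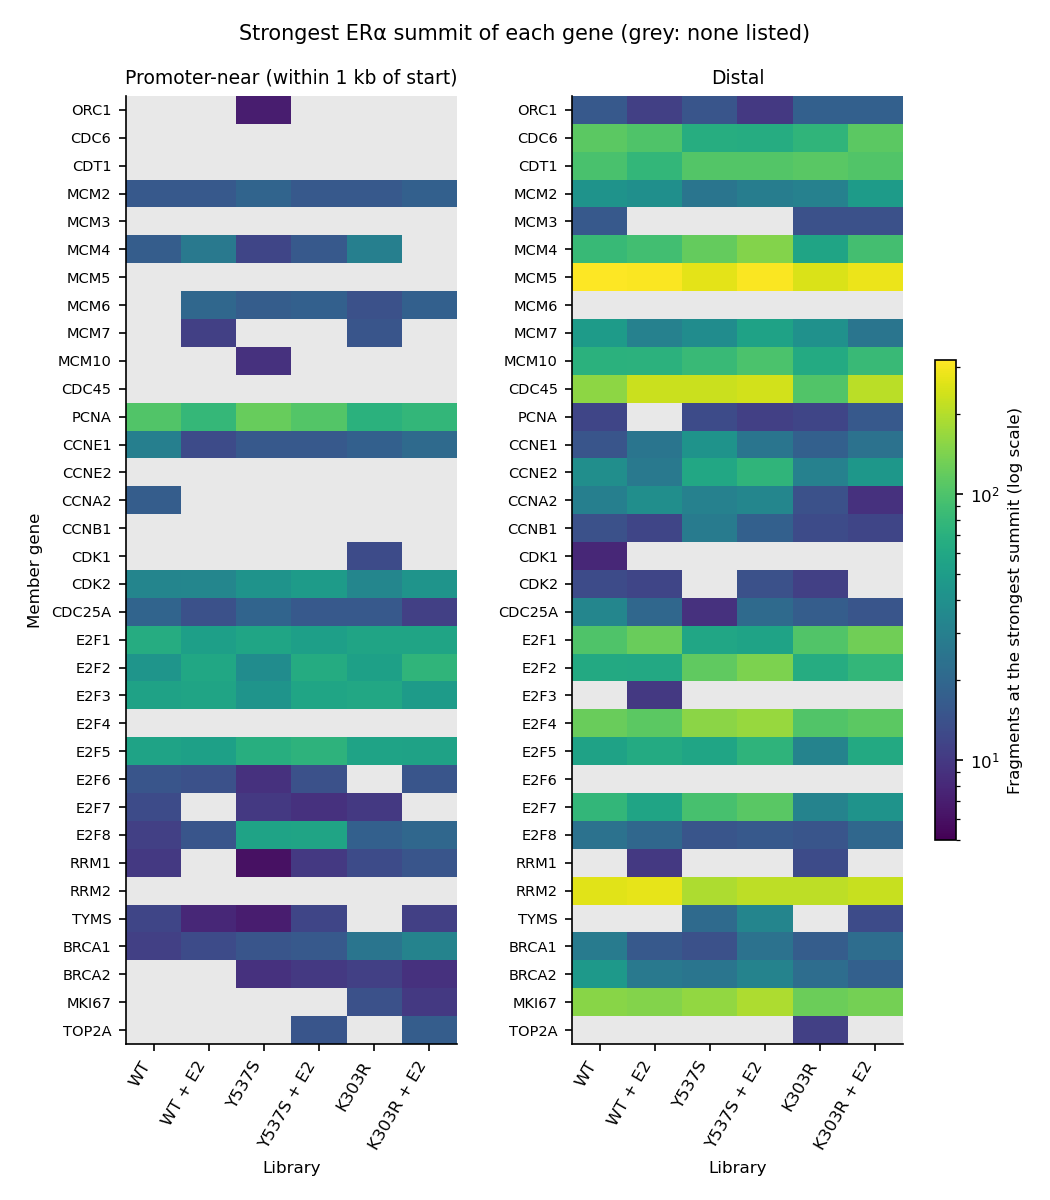
Fragments at the strongest promoter-near (left) and distal (right) summit of each of the 34 genes (rows, by role) in each library (columns), on a log colour scale; grey means that no summit is listed. PCNA has the brightest promoter-near row, and the distal rows of MCM5, CDC45 and RRM2 are the brightest of all.

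Among the licensing genes, which load the MCM helicase onto origins before S phase, 7 of 51 regions were promoter-near, at 5 of the 9 genes, and MCM2 alone had a promoter-near summit in all 6 libraries. ORC1, a subunit of the origin recognition complex, had a promoter-near summit only in the Y537S list without E2, with 7 fragments, and its other 2 regions lay in the neighbour CC2D1B with at most 18. CDC6, which loads the helicase together with CDT1, had 2 regions in all 6 lists, both in the neighbour RARA, a retinoic acid receptor gene and known estrogen receptor target. The stronger held 112, 101, 67, 66, 76 and 112 fragments, with both Y537S libraries lowest. The weaker, 7997 bp beyond the CDC6 span (chromosome 17, 40312294 to 40312864), held 90, 51, 30, 33, 64 and 74 and was called lower in Y537S than in WT without E2, at a ratio of 0.364 (0.232 to 0.555).

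CDT1 had 1 region called higher than WT in both mutants with and without E2, while its strongest region had no call. Its region inside the gene, 3189 bp after the start (chromosome 16, 88806322 to 88807197), held 37 fragments in WT, 43 in WT with E2, 99 and 105 in Y537S, and 65 and 80 in K303R. All 4 mutant libraries were above both WT libraries. It was called higher in Y537S without E2 (ratio 2.92, 1.98 to 4.38) and with E2 (2.36, 1.64 to 3.45), and in K303R without E2 (2.37, 1.56 to 3.66) and with E2 (2.10, 1.43 to 3.11). The K303R call without E2 was not kept when scaled by local background in place of the median region. That with E2 was not kept when centred on the regions within 5 Mb. A second region, 170 bp from the start of the neighbour APRT, held 58, 59, 106, 100, 75 and 82 fragments and was called higher in Y537S without E2 (1.99, 1.43 to 2.80).

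MCM5, a subunit of the replicative helicase, had the strongest region of all members. It lay inside the gene, 3320 bp from its nearer end (chromosome 22, 35402924 to 35403793), and held 320 fragments in WT, 311 in WT with E2, 271 and 312 in Y537S, and 251 and 282 in K303R. It stood at rank 73 of the 125850 peaks in the WT list and between rank 133 and rank 451 in the other 5. None of its 7 ratios between libraries passed 1.5-fold, and they ran from 0.924 (0.783 to 1.09) for Y537S without E2 to 1.06 (0.895 to 1.25) for K303R without E2. The next strongest MCM5 region held 159, 171, 134, 164, 90 and 120 fragments and had no call. Other MCM5 regions were called in opposite directions. A region 2496 bp from the far end (35452295 to 35452871) held 30, 40, 61, 83, 56 and 48 and was called higher in Y537S without E2 (2.22, 1.41 to 3.56) and with E2 (2.01, 1.36 to 3.01) and in K303R without E2 (2.52, 1.59 to 4.07). The K303R call was not kept when scaled by local background. A region inside the gene at 35437377 to 35437999 held 27, 42, 62, 69, 20 and 17 and was called higher in Y537S without E2 (2.51, 1.57 to 4.10). The region in HMOX1, the heme oxygenase gene beside MCM5 (35392250 to 35392761), held 66, 64, 29, 27, 75 and 68, and was called lower in Y537S without E2 (0.479, 0.299 to 0.752) and with E2 (0.408, 0.250 to 0.650).

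The other helicase subunits were bound less. MCM4 held 82, 91, 119, 147, 57 and 93 fragments at a region inside the gene, 5255 bp from its nearer end on chromosome 8, called higher in Y537S with E2 (1.56, 1.20 to 2.05). It also had promoter-near summits in 5 libraries, with at most 30 fragments, at the end it shares with its divergent neighbour PRKDC. MCM7 held 7, 11, 24, 47, 18 and 17 at a region in its neighbour AP4M1, called higher in Y537S with E2 (4.13, 2.11 to 8.84) from 11 fragments in WT. Its mean of 20.7 passed the minimum of 20 for comparison only through the Y537S libraries. MCM2 had a promoter-near region in all 6 lists that joined summits on both sides of the start, from 273 bp before to 682 bp after it. The strongest summit in each list held 16, 16, 19, 16, 16 and 18 fragments, too few for the comparison of libraries. Its distal regions held at most 49. MCM6 had a single region, 599 bp after the start, with 14 to 20 fragments in 5 lists and none listed in WT without E2. MCM3 had no promoter-near summit and at most 16 fragments at 2 regions.

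Of the genes that fire origins and carry the fork, PCNA had the strongest promoter-near region and CDC45 among the strongest distal ones. PCNA, the sliding clamp of the replication polymerases, held 104 fragments in WT, 80 in WT with E2, 121 and 105 in Y537S, and 71 and 79 in K303R at its region 122 bp after the start. It covers the PCNA sequence printed above and the 250 bases upstream of the start. Both Y537S libraries were above the other 4, by a small margin over WT. None of the ratios of PCNA was called: Y537S against WT gave 1.27 (0.969 to 1.67) without E2 and 1.27 (0.941 to 1.72) with E2, and E2 gave 0.769 (0.567 to 1.04) in WT. MCM10, which helps to activate the helicase, had a promoter-near summit in 1 list, with 9 fragments, and a region 9218 bp beyond its end with 71, 72, 84, 98, 64 and 84.

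CDC45, a part of the active helicase, had 8 of its 9 regions in all 6 lists and no promoter-near summit. Its 3 strongest regions lay 4536 to 6966 bp outside the span, in the neighbour UFD1 (chromosome 22, 19472261 to 19475177). The nearest of them held 152 fragments in WT, 230 in WT with E2, 230 and 240 in Y537S, and 96 and 208 in K303R. The WT and K303R libraries without E2 were the lowest, and the Y537S library without E2 equalled WT with E2. It was called higher with E2 in WT (1.51, 1.23 to 1.87) and in K303R (1.84, 1.44 to 2.37), while E2 in Y537S gave 0.928 (0.771 to 1.12). The difference between lines was not tested. Y537S was called higher than WT there without E2 (1.65, 1.34 to 2.04) and had a ratio of 1.01 (0.839 to 1.22) with E2. The outermost of the 3 held 117, 158, 196, 209, 89 and 168 and was called higher with E2 in K303R (1.60, 1.23 to 2.10) and in Y537S over WT without E2 (1.83, 1.45 to 2.32). The middle region held 159, 164, 173, 196, 104 and 152 and had no call. Inside the gene, with CLDN5 as the nearest start, regions with 40, 70, 78, 80, 42 and 74 fragments and with 62, 70, 111, 97, 63 and 82 fragments were called higher in Y537S over WT without E2 (2.13, 1.44 to 3.20, and 1.95, 1.42 to 2.71). A region 60 bp from the start of CLDN5 held 15, 17, 16, 33, 14 and 41 and was called higher in K303R over WT with E2 (2.72, 1.51 to 5.10).

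**Figure D4:**
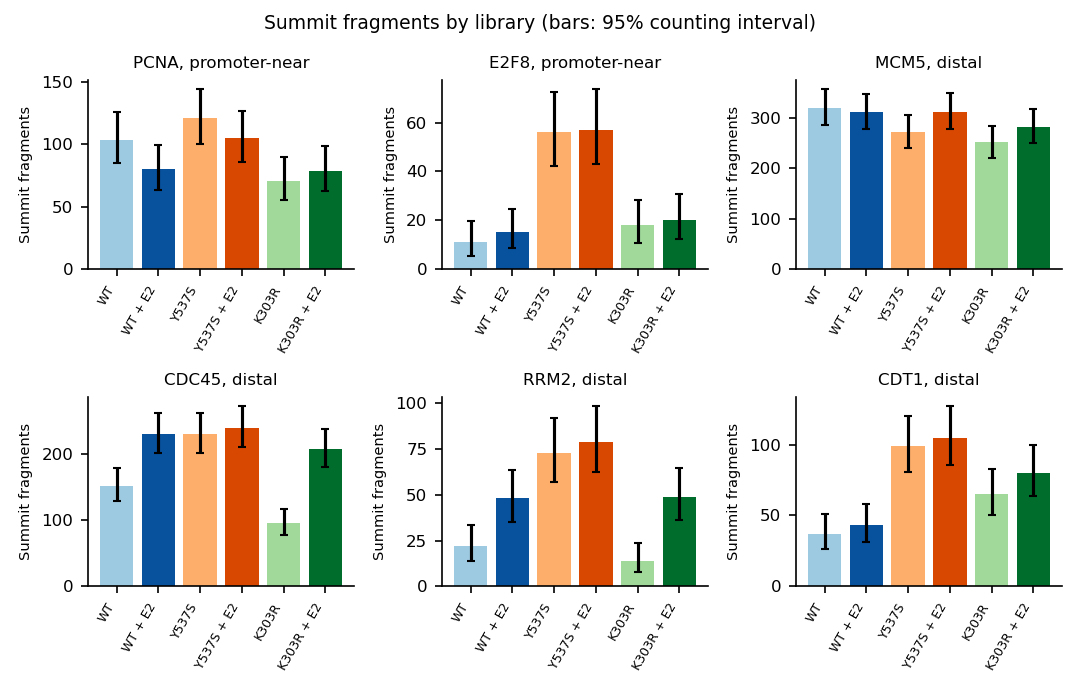
Summit fragments in each of the 6 libraries at 6 regions (PCNA and E2F8 promoter-near; MCM5, CDC45, RRM2 and CDT1 distal), with bars of the 95% counting interval and a separate linear scale starting at 0 in each panel. The MCM5 bars lie between 251 and 320, the CDC45 bars are lowest at 152 and 96 in WT and K303R without E2, and the E2F8 bars are highest at 56 and 57 in Y537S.

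The cyclins and kinases that push cells into S phase and mitosis had weak regions, the strongest with a mean of 44.3 fragments. CDK2, the kinase partner of cyclins E and A, had a promoter-near region in all 6 lists, 157 bp from an end of its span, with 33, 34, 42, 49, 34 and 43 fragments. None of its 7 ratios was called, and the intervals of all 7 hold 1. CCNE1, which encodes cyclin E1, had 30, 13, 16, 16, 18 and 21 fragments at a region 573 bp before its start, below the minimum for comparison. A second CCNE1 region, 6302 bp before the start, held 15, 25, 42, 25, 18 and 24 and was called higher in Y537S over WT without E2 (3.05, 1.66 to 5.93). CCNE2, encoding cyclin E2, had no promoter-near summit, and a region in its neighbour NDUFAF6 with 36, 27, 57, 76, 25 and 45 fragments was called higher in Y537S over WT with E2 (2.72, 1.74 to 4.40). CDC25A, the phosphatase that activates CDK2, had 19, 14, 19, 16, 16 and 11 fragments at the region 52 bp after its start that covers the printed sequence. CCNA2, which encodes cyclin A2, had a promoter-near summit in WT without E2 only, with 17 fragments, and its 2 regions inside the gene held at most 39. CCNB1, encoding the mitotic cyclin B1, had a single region, 1375 bp after the start, with 14, 12, 28, 18, 13 and 12 fragments. CDK1, the mitotic kinase, had 1 summit in WT and 1 in K303R, both without E2, with 8 and 13 fragments.

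At the E2F genes 9 of 34 regions were promoter-near. At 7 of the 8 genes a promoter-near summit was listed in at least 1 library, and at 5 in all 6, while all 4 repair and proliferation genes had one in at least 1 library and 1 of them in all 6. The activators E2F1, E2F2 and E2F3 were all bound near the start in every library, and no ratio at these regions was called. E2F1 held 66, 52, 58, 52, 57 and 57 fragments at a region 501 bp after its start, and its 7 ratios ran from 0.788 (0.537 to 1.15) for E2 in WT to 1.24 (0.833 to 1.83) for K303R with E2. E2F3 held 55, 57, 43, 58, 61 and 49 at a region 467 bp before its start. E2F2 had 2 such regions, 217 bp after and 747 bp before its start, with 35, 60, 38, 65, 53 and 76 fragments and with 44, 41, 29, 41, 30 and 50. At the first of these the E2 library held more fragments than its partner in all 3 lines. The ratios with E2 were 1.71 (1.11 to 2.68) in WT, 1.52 (1.00 to 2.33) in Y537S and 1.22 (0.847 to 1.77) in K303R, and K303R against WT without E2 gave 2.05 (1.31 to 3.23). The first and the last of these intervals exclude 1 clearly, but none was called at the stricter error rate used for calls.

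Distal regions of E2F1 and E2F2 were called between libraries of different receptors, while the distal region of E2F3 was not tested. A region 820 bp beyond the end of E2F1, in its neighbour NECAB3 (chromosome 20, 33674006 to 33675108), held 102, 124, 59, 56, 104 and 130 fragments, with both Y537S libraries below the other 4. It was called lower in Y537S than in WT with E2 (0.437, 0.313 to 0.604). E2F2 moved the other way at a region 7899 bp beyond its end (chromosome 1, 23497079 to 23497613), with 63, 62, 116, 142, 66 and 79 fragments. Y537S was called higher there without E2 (2.01, 1.47 to 2.77) and with E2 (2.22, 1.63 to 3.04). Inside E2F2 a region with 24, 22, 42, 61, 31 and 37 fragments was called higher in Y537S with E2 (2.68, 1.62 to 4.59), and a region with 41, 30, 46, 40, 42 and 58 was called higher in K303R with E2 (2.18, 1.38 to 3.51).

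E2F4, a factor that mainly represses in resting cells, had no promoter-near summit and 4 distal regions in all 6 lists, all with ELMO3 as the nearest start. At the region inside E2F4, 5993 bp after its start (chromosome 16, 67197923 to 67198375), the libraries held 73, 55, 126, 149, 71 and 94 fragments. It was called higher in Y537S without E2 (1.88, 1.40 to 2.55) and with E2 (2.62, 1.91 to 3.64), and in K303R with E2 (1.93, 1.37 to 2.74). At the region 1806 bp beyond the gene the libraries held 73, 79, 155, 168, 72 and 107, and Y537S was called higher without E2 (2.32, 1.74 to 3.10) and with E2 (2.06, 1.57 to 2.72). Between them a region with 123, 98, 114, 166, 103 and 103 fragments was called higher in Y537S with E2 (1.64, 1.27 to 2.13). The farthest region held 113, 112, 156, 152, 67 and 113 and had no call.

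The other E2F genes differed among themselves. E2F8, an atypical E2F that represses, had the only promoter-near region called in any comparison. It lay 198 bp from an end of the gene span (chromosome 11, 19241086 to 19241663), within the antisense gene CSRP3-AS1 as well, and held 11 fragments in WT, 15 in WT with E2, 56 and 57 in Y537S, and 18 and 20 in K303R. Both Y537S libraries were more than 30 fragments above the other 4. The region passed the minimum mean of 20 fragments for comparison through the Y537S libraries, since the other 4 held at most 20. The ratio of Y537S to WT was 5.55 (2.88 to 11.8) without E2 and 3.68 (2.05 to 6.99) with E2, and that of K303R to WT without E2 was 2.21 (0.989 to 5.18), which was not called. E2F7, the other atypical member, had 9 to 13 fragments at a region 233 bp before its start in 4 lists and a distal region inside the gene with 79, 57, 95, 110, 32 and 42, called higher in Y537S with E2 (1.87, 1.34 to 2.62). E2F5, a repressor of the E2F4 kind, held 56, 53, 68, 73, 56 and 55 at a region 810 bp from an end of its span and had no call. E2F6, a repressor that does not bind pocket proteins, had only promoter-near summits, with at most 15 fragments and none listed in K303R without E2.

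Of the genes that supply nucleotides, RRM2 was bound over a long stretch and the others barely. RRM2 and RRM1 encode the small and large subunits of ribonucleotide reductase. RRM2 had no promoter-near summit, and its closest region in all 6 lists, 2495 bp before the start, held 106, 99, 90, 87, 70 and 86 fragments. Its strongest regions lay far into its RefSeq span, nearest to the start of an uncharacterised RNA gene, LOC105373424. The strongest (chromosome 2, 10190943 to 10191618, 68592 bp after the start) held 264, 276, 192, 211, 211 and 227 and had no call. Its neighbour at 10189481 to 10189987 held 197, 216, 147, 154, 106 and 191 and was called higher with E2 in K303R (1.53, 1.20 to 1.96). Another at 10171267 to 10171905 held 164, 256, 163, 197, 112 and 185 and was called higher with E2 in WT (1.56, 1.28 to 1.91), and the region beside it held 142, 181, 116, 173, 97 and 140 with no call.

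Weaker RRM2 regions showed wider ratios. The region 22081 bp after the start (10144567 to 10145159) held 22 fragments in WT, 48 in WT with E2, 73 and 79 in Y537S, and 14 and 49 in K303R. The WT and K303R libraries without E2 were lowest and both Y537S libraries highest. It was called higher with E2 in K303R (2.98, 1.62 to 5.83) and in Y537S over WT without E2 (3.62, 2.22 to 6.13). With E2 the ratio in WT was 2.18 (1.29 to 3.80) and in Y537S 0.962 (0.691 to 1.34), neither called. The region at 10155598 to 10156129 held 33, 49, 64, 79, 19 and 48 and was called higher in Y537S over WT without E2 (2.12, 1.37 to 3.32). The region at 10161218 to 10161638 held 21, 56, 77, 58, 23 and 21. It was called higher with E2 in WT (2.67, 1.59 to 4.64), higher in Y537S over WT without E2 (4.00, 2.44 to 6.83), and lower in K303R than in WT with E2 (0.423, 0.243 to 0.709). RRM1 had promoter-near summits with 6 to 15 fragments in 5 libraries. TYMS, the thymidylate synthase, had promoter-near summits with 7 to 12 fragments in 5 libraries, from 87 bp before to 591 bp after its start. It also had a distal region with 21 and 33 in Y537S and 13 in K303R with E2, not listed in the other 3.

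Repair and proliferation genes had few shared regions. The strongest belonged to MKI67, which encodes the proliferation antigen Ki-67, 1313 bp beyond the end of the gene (chromosome 10, 128095043 to 128095684). It held 154, 147, 163, 191, 126 and 135 fragments and had no call in any comparison. Near its start MKI67 had summits in the K303R lists only, with 14 and 10 fragments. BRCA1, which acts in homologous recombination, held 11, 13, 15, 16, 25 and 32 at a region in all 6 lists, 397 bp after the start listed for it. That start is an outer one of a 126 kb span, and 2 of its other regions, 74 and 576 bp from the start of the divergent neighbour NBR2, were each in 1 list with at most 10 fragments. The K303R libraries were highest at the first, but its mean was below the minimum for comparison. BRCA2, its partner in recombination, had promoter-near summits with 9 to 11 fragments in 4 libraries and none in WT. TOP2A, the replication-linked topoisomerase, had summits in 3 libraries only, with 11 to 17 fragments.

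Compared across libraries, the member regions were called most often in Y537S against WT, the comparisons with the most calls among all regions too. Fewer were called with E2 or in K303R against WT. The comparison covered regions in all 6 lists with a mean of at least 20 fragments, 61 of the members and 59902 in all. The mean is over all 6 libraries, so a region high in 1 group alone could pass through that group. A region was called when its ratio of summit fragments, centred on the median region, was past 1.5-fold and 1 lay outside its exact counting interval at an error rate of 0.001. With E2, 3 of 61 member regions were called higher in WT and 0 lower (of all regions 1.41% and 0.656% were), 0 and 0 in Y537S (0.134% and 0.105%), and 4 and 0 in K303R (2.13% and 0.656%). The called regions belonged to CDC45 and RRM2 alone, and the CDC45 region nearest the gene was called in both lines. The median member log2 ratio with E2 was 0.10 in WT, −0.02 in Y537S and 0.15 in K303R. The E2 library was above its partner in all 3 lines at 14 of 61 member regions (22.95%, against 15.97% of all regions) and below it in all 3 at 6 (9.84%, against 15.9%).

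Y537S was called higher than WT at 16 of 61 member regions and lower at 2 without E2 (8.53% and 6.69% of all regions), and at 12 and 2 with E2 (6.80% and 6.08%). The median member log2 ratio was 0.34 without E2 and 0.23 with E2. Without E2 the calls numbered 10 higher and 2 lower centred within 5 Mb, where 11 of the 18 calls were kept, and 20 and 1 scaled by background. Of 22 regions called higher in either treatment, 6 were called in both (in CDT1, E2F2, E2F4 with 2, E2F8 and MCM5). Of 3 called lower, the one in HMOX1 beside MCM5 was called in both. The share of all regions called in both treatments is not given, so these overlaps are not read as a trait of the members. Since several regions come from the same gene, these 61 are not independent. The peak names of the Y537S lists carry another tag than those of WT and K303R. What the tag stands for is not stated, and receptor, line and tag cannot be told apart in this comparison. Counted only where the nearest annotated start was that of the member, Y537S was higher at 7 of 27 regions and lower at 0 without E2, and at 6 and 0 with E2. Shares of all regions are given for the main setting only. The counts by nearest start, centred within 5 Mb or scaled by background therefore have no share to set beside them.

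K303R was called higher than WT at 2 of 61 member regions and lower at 0 without E2 (4.17% and 5.13% of all regions), shares no larger than those of all regions. Scaled by local background in place of the median region, calls without E2 numbered 0 higher and 4 lower, and the member median turned from 0.15 to −0.27. The 2 higher calls, in CDT1 and MCM5, were thus not kept. With E2, 4 were called higher and 1 lower (4.90% and 6.98% of all regions), with a member median of 0.24 (log2). Scaled by background they numbered 2 and 1, and centred within 5 Mb 0 and 1. The higher calls in CDC45, CDT1, E2F2 and E2F4 were thus not kept within 5 Mb. The background scale shifts the median of all regions by −0.42 (log2) for K303R against WT without E2, −0.13 with E2, 0.33 for E2 in K303R and 0.17 for Y537S against WT without E2. All other ratios here are relative to the median region. The Y537S and K303R comparisons use the same WT libraries.

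**Figure D5:**
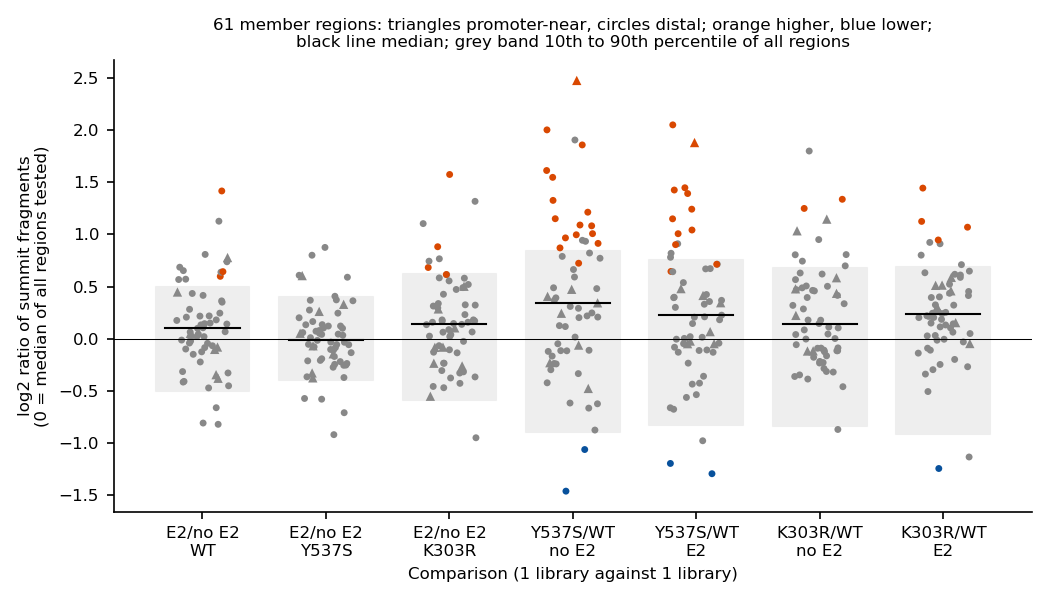
log2 ratio of summit fragments at the 61 member regions in each of the 7 comparisons of 2 libraries, where 0 is the median of all regions; triangles are promoter-near and circles distal regions, orange and blue mark calls of higher and lower, black lines are member medians and grey bands the 10th to 90th percentile of all regions. Colour is sparse in the 3 columns for E2, and orange points are most frequent in the 2 columns for Y537S.

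By distance, 1 of 8 promoter-near and 28 of 53 distal regions tested had a call in some comparison (12.5% and 52.8%). Over all protein-coding genes, where a start of any such gene counted, the shares were 24.9% of 4005 promoter-near and 34.97% of 33595 distal regions. Their difference from the members was not tested. For the members only the member's own start counted, so these shares follow unlike rules. Called distal member regions lay 170 bp from the start of APRT, 60 bp from CLDN5, 229 bp from NECAB3, and 203 and 983 bp from ELMO3. Uncalled ones lay 527 bp from TPRA1, 180 bp from COPS6 and 335 bp from ACTL10. The median log2 ratio for Y537S against WT was 0.29 at the 8 promoter-near and 0.37 at the 53 distal regions without E2, and 0.21 and 0.23 with E2. For E2 it was −0.02 and 0.11 in WT, −0.01 and −0.02 in Y537S, and −0.08 and 0.16 in K303R. For K303R against WT it was 0.46 and 0.10 without E2 and 0.38 and 0.22 with E2. Just inside 1 kb of the start lay TOP2A at 887 bp, CDK2 at 824 bp and E2F5 at 810 bp, with means of 5.33, 8.83 and 60.2 fragments. Just outside lay TOP2A at 1021 bp, CCNE2 at 1176 bp and CDK1 at 1204 bp, with 1.83, 13.2 and 1.33 (a list without the region counts as 0). At the 10 kb limit of the window, regions of MCM2, CCNE2 and MCM10 were inside with means of 25.2, 42.8 and 78.8, and regions of MCM7, CDC6 and MCM5 just outside with 64.3, 94.8 and 3.33.

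A wider list of 78 other cell cycle and replication genes is given beside the members. A summit was listed for 76 of the 78 in at least 1 library and for 67 in all 6, and a promoter-near one for 61 and 32. Of all protein-coding genes 82.2% to 84.7% had a summit by library, and 40.1% to 44.9% a promoter-near one. Promoter-near summits were 18.6% to 25% of the list's summits by library, and 17.9% to 20.6% of those of the 34 genes. Of its 113 tested regions 0 were called with E2 in any line, where 0.105% to 2.13% of all regions were, by line and direction. Against WT, 19 were higher and 6 lower in Y537S without E2 (8.53% and 6.69% of all regions), and 15 and 2 with E2 (6.80% and 6.08%). In K303R 7 and 0 were without E2 (4.17% and 5.13%), and 6 and 2 with E2 (4.90% and 6.98%). The median log2 ratio of the list for Y537S was 0.18 without E2 and 0.12 with E2. In these peak lists the strongest regions of the wider list were distal as well. They belonged to RECQL4, a replication helicase (223, 230, 284, 289, 335 and 333 fragments), CCNA1, a cyclin of the germ line (312, 307, 253, 291, 241 and 269), and UHRF1, which maintains DNA methylation (234, 266, 228, 238, 279 and 304). GINS1, a helicase subunit, held 240, 218, 171, 206, 166 and 200, RB1, the pocket protein that restrains E2F, 218, 222, 178, 188, 133 and 170, and TK1, a thymidine kinase, 158, 135, 196, 212, 158 and 201. RECQL4 was called higher in K303R over WT without E2 (2.03, 1.71 to 2.42) and with E2 (1.63, 1.38 to 1.94). UHRF1 was called higher in K303R without E2 (1.61, 1.35 to 1.93), and TK1 with E2 in Y537S (1.52, 1.22 to 1.90) and K303R (1.68, 1.34 to 2.10), each over WT. At CCNA1, GINS1 and RB1 a WT library held the most fragments before scaling, and no ratio at the strongest region was called.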

How the data were processed

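Each of the 6 libraries has its own deposited peak list. Per the submitters' processing notes, Bowtie2, SAMtools, Picard, bedtools and MACS2 were used with hg38. No source used here gives versions, the control library, the threshold or total read depth. For each peak the authors give a fold enrichment (a ratio) and a −log10 p and −log10 q. The whole number of summit fragments and the local background were recovered by solving the deposited fold, with a pseudocount of 1, and the Poisson p together. The deposited p was matched within 0.01% for 100% of regions.

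Peaks on chromosomes 1 to 22 and X were merged at 1 bp overlap and assigned to genes with RefSeq spans and starts (GRCh38.p14), available for 28 of the 34 members. The position of a region is that of its strongest summit over the lists. Its value in a list is that of the strongest summit there, which can lie elsewhere in the region. Calls used regions in all 6 lists with a mean of at least 20 fragments, a 1.5-fold limit and exact counting intervals at an error rate of 0.001. Values per library are given for the 12 strongest member regions, every promoter-near region in all 6 lists and every called region, and for the 6 strongest genes of the wider list. Further values are given to account for all members and were chosen after they were seen. The members and lists were chosen with earlier results of these data known. Alternatives were other windows, thresholds, scalings and minimums. A count from either end of the span and one by nearest start were added after seeing the data. Python 3.11.15, numpy 2.4.6, pandas 2.3.3 and scipy 1.17.1 were used.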

Additional observations from a re-analysis of the deposited data

How the results depend on the processing

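The number of genes with a summit and the 70 member regions in all 6 lists stayed within 1.5 times under every alternative run. With peaks of −log10 q of at least 10 only, promoter-near genes numbered 10 in WT, 8 in WT with E2, 12 in Y537S, 12 in Y537S with E2, 10 in K303R and 6 in all 6 lists. Within 500 bp in place of 1 kb they numbered 10 in WT with E2, and the promoter-near share was 10.3% in WT with E2, 11.6% in Y537S, 12.6% in K303R and 11.2% in K303R with E2. Within 3 kb the share was 27.4% in WT, 27.3% in Y537S, 27.97% in Y537S with E2 and 31.1% in K303R. For E2 in WT, 1 member region was called at 2-fold and 0 where the nearest start was the member's. For E2 in K303R the calls numbered 1 at 2-fold, 1 by nearest start, 2 with a mean of at least 50 fragments, 2 centred within 5 Mb and 11 scaled by background. Y537S against WT gave 7 calls by nearest start without E2, and 6 by nearest start and 9 with a mean of at least 50 with E2. K303R against WT gave 4 calls scaled by background without E2, all lower. With E2 it gave 2 with a mean of at least 50, 3 scaled by background, 1 centred within 5 Mb and 2 by nearest start. A higher minimum or the nearest start leaves fewer regions to test, and otherwise the cause was not tested. Shares of all regions under these alternatives are not given. No replicate could be left out. No paired analysis was possible because each group has 1 library, so no replicate numbers pair the samples. A fit of E2 over the 3 lines, with receptor as a term, was not run. Unknown read depth limits all ratios to a relative scale.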
